A study of Ovis aries and Bos taurus with 6 samples.

Results

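The miRNAs of the DLK1-DIO3 region, the imprinted cluster known in sheep as the callipyge locus, were followed in small RNA sequenced from milk extracellular vesicles (EVs), lipid-bound particles released by cells with RNA inside. A row of the deposited tables was taken as a member when its name, without the oar- or bta- species prefix and the -5p or -3p arm suffix, was on a list of 56 miRNAs of the locus. This gave 55 member rows of 1464 rows in both tables, 36 of 685 rows in the sheep table and 19 of 779 in the cow table. The rule reads names only. Of the 56 listed miRNAs, 28 had a row in sheep and 19 in cow, 14 of them in both, and 23 had none in either table.

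The libraries came from milk of 3 Ordos fine wool sheep and of Holstein cows (3 libraries), all females in mid lactation. The labels conflict for the cow libraries: title, organism and breed give cow, and were followed here, while the treatment field repeats the sheep text. No animal carried a named allele or received an agent per the labels, and the series addresses how the miRNA content of sheep milk EVs compares with that of cow milk. The cow data were taken from previous work by the same group, so a species difference cannot be told apart from one of breed or of study. The labels do not say that each cow library is a separate animal, and p-values measure only the spread between these libraries. EVs were precipitated with a kit that does not sort them by cell of origin, so fewer vesicles from a cell type and fewer copies per vesicle cannot be told apart.

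In mammals the DLK1-DIO3 region carries protein-coding genes expressed from the paternal chromosome (DLK1, RTL1 and DIO3) and long noncoding RNAs expressed from the maternal chromosome, from which a large group of miRNA hairpins is cut. One group of them lies antisense to RTL1, a retrotransposon-derived gene of placenta and muscle, and is known to act against the RTL1 transcript. A few others lie close to that group, and most belong to the dense miR-379 to miR-656 cluster, best known from brain and embryo. In sheep a point mutation of the region causes the muscular hypertrophy of callipyge animals. RefSeq (assembly ARS-UI_Ramb_v3.0) lists hairpins for 54 of the 56 members, all on sheep chromosome 18. No build is named for the deposited tables in the sources used here, so only the order of the hairpins was taken from RefSeq.

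The sheep table lists a sequence for each row and the cow table does not. The 5 sheep member rows of highest mean level are shown here because they carry most of the locus counts; each is written 5′ to 3′ as deposited, with the seed (bases 2 to 8, which lead target pairing) in capitals.
miR-127: aTCGGATCcgtctgagcttggct
miR-409-3p: cGAATGTTgctcggtgaacccct
miR-379-5p: tGGTAGACtatggaacgtaggc
miR-432: tCTTGGAGtaggtcattgggtgg
miR-543-3p: aAACATTCgcggtgcacttcttt

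The 36 sheep rows held 35 distinct seeds. The only seed found in 2 member rows was that of miR-411a-3p and miR-379-3p, which differ by 1 substitution over 21 aligned bases (C10T, counted from the 5′ end of miR-411a-3p). The 2 rows are shown with the seed in capitals.
miR-411a-3p: tATGTAACacggtccactaac
miR-379-3p: tATGTAACatggtccactaact

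miR-323a-3p and miR-323c differ by 2 substitutions over 21 bases (T5A and A16G, counted from the 5′ end of miR-323a-3p), the first of them in the seed. miR-543-3p and miR-495-3p share 18 of 22 bases and differ in the seed by T6A and T7A (counted from the 5′ end of miR-543-3p). miR-369-3p and miR-655-3p share 17 of 20 aligned bases. Reads of such close copies may have been split between rows by the counting, so the single values of these 8 rows are uncertain to that extent.

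A short string recurred in the locus that the choice of members did not use. ACATGG or ACACGG, 2 non-overlapping strings searched after the sequences had been seen, stood in 11 of 36 member rows (30.6%), in 0 of 48 other sheep rows with a miRBase name and in 2 of 601 rows without one. Over all 685 sheep rows the share was 1.90% as listed and 0.584% on the opposite strand, where 1 member row had a match. In the member rows the string began at base 5 to 9 (median 7), overlapping the seed's end or directly after it. Of the 11 rows, 9 are 3p arms and 10 come from hairpins of the miR-379 to miR-656 cluster. Among all 36 member rows, 19 are 3p arms and 27 come from that cluster. Some of the 11 are close copies of each other, as named above, so they are not separate occurrences. The 11 rows are written here with the string in capitals, to show the common core between differing ends.
miR-411a-3p: tatgtaACACGGtccactaac
miR-323a-3p: cacattACACGGtcgacctct
miR-323c: cacaatACACGGtcggcctct
miR-485-3p: gtcatACACGGctctcctctct
miR-494-3p: tgaaacatACACGGgaaacctct
miR-495-3p: aaacaaACATGGtgcacttctt
miR-379-3p: tatgtaACATGGtccactaact
miR-369-3p: aataatACATGGttgatcttt
miR-655-3p: ataatACATGGttaacctctct
miR-496-3p: tgagtattACATGGccaatct
miR-493-5p: ttgtACATGGtaggctttcatt

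Member rows were as rich in G and C as the other 48 named sheep rows (median 45.5% against 45.2%), and their median length was 22 bases against 21.

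Total miRNA counts ran from 1073914 to 2078695 in the sheep libraries and from 328527 to 556489 in the cow libraries, so 1 count was worth 0.481 to 0.931 CPM (the usual scaling of a count by its library's total) in sheep and 1.80 to 3.04 CPM in cow. A count of 0 allowed up to 1.44 to 2.79 CPM in sheep and 5.39 to 9.13 CPM in cow, from a floor of 3 counts. Such limits and the intervals below hold for counting error alone, because PCR copies of a molecule are counted as separate reads. The largest row took 19.6% to 63.6% of a sheep library (miR-148a, a major miRNA of lactating mammary epithelium) and 51.2% to 68.9% of a cow library (a row without a miRBase name), which lowers the CPM of all other rows in turn. Sheep replicate 1 stood apart: its miR-148a share was the lowest of the 3, while the lymphocyte miRNA miR-150 had 637 CPM there against 30.8 and 36.3 in replicates 2 and 3. The locus shares are given with and without it. Of the marker lists set for this report, the mammary epithelial list had 3 of 7 miRNAs named in sheep (20.1% to 63.8% of a library) and 7 of 7 in cow (0.115% to 0.235%). The lists for red blood cells, liver, striated muscle and neurons had no sheep row with a miRBase name, so they could not be read in sheep.

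In sheep replicates 1, 2 and 3, locus miRNAs made up 0.797% (0.781 to 0.814, 95% Wilson interval), 0.236% (0.230 to 0.243) and 0.416% (0.404 to 0.429) of all counts. In cow they took 0.0533% (0.0459 to 0.0618), 0.0266% (0.0226 to 0.0312) and 0.0400% (0.0342 to 0.0468). Every sheep share lay above every cow share. The means were 0.483% ± 0.286 and 0.0399% ± 0.0133 (SD, n = 3), a difference of 0.443 percentage points (exact two-sided permutation p = 0.1, the smallest that 3 against 3 allows). Without sheep replicate 1 the sheep mean was 0.326% and the difference 0.286. Sums of markers of other cell types also differed between the tables, but they cover unlike rows. The stromal list summed to 1678 to 7081 CPM in sheep (2 rows) and 557 to 1284 CPM in cow (5 rows). The leukocyte list summed to 30.8 to 637 CPM in sheep (1 row) and 3004 to 6379 CPM in cow (5 rows). The red blood cell list, without a named sheep row, summed to 1.53% to 2.76% of a cow library. The part of these cell types in the locus share was not tested. Rows with a miRBase name held 41.9% to 78.1% of a sheep library but 15.8% to 29.0% of a cow library, and locus reads in unnamed cow rows would not be counted here.

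The ratio of the means, 12.1-fold over all counts, depended on the denominator. Over named rows only, the shares were 0.954% ± 0.841 in sheep and 0.198% ± 0.0919 in cow (4.82-fold), without overlap; without sheep replicate 1 the sheep mean was 0.479%. Over the miRNAs named alike in both species, the 4 locus members among them took 0.631% ± 0.634 and 0.279% ± 0.162, and the libraries overlapped (exact permutation p = 0.5). That direction rested on sheep replicate 1: without it the sheep mean was 0.269%, below the cow mean. When the largest row of each library was left out of the total, the locus took 0.771% ± 0.191 and 0.104% ± 0.0431 (7.39-fold), with 0.660% in sheep without replicate 1. Over the larger constant behind the deposited TPM, the shares were 0.0498% ± 0.0347 and 0.00125% ± 8.03e-05, or 39.7-fold, with 0.0298% in sheep without replicate 1.

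**Figure D1:**
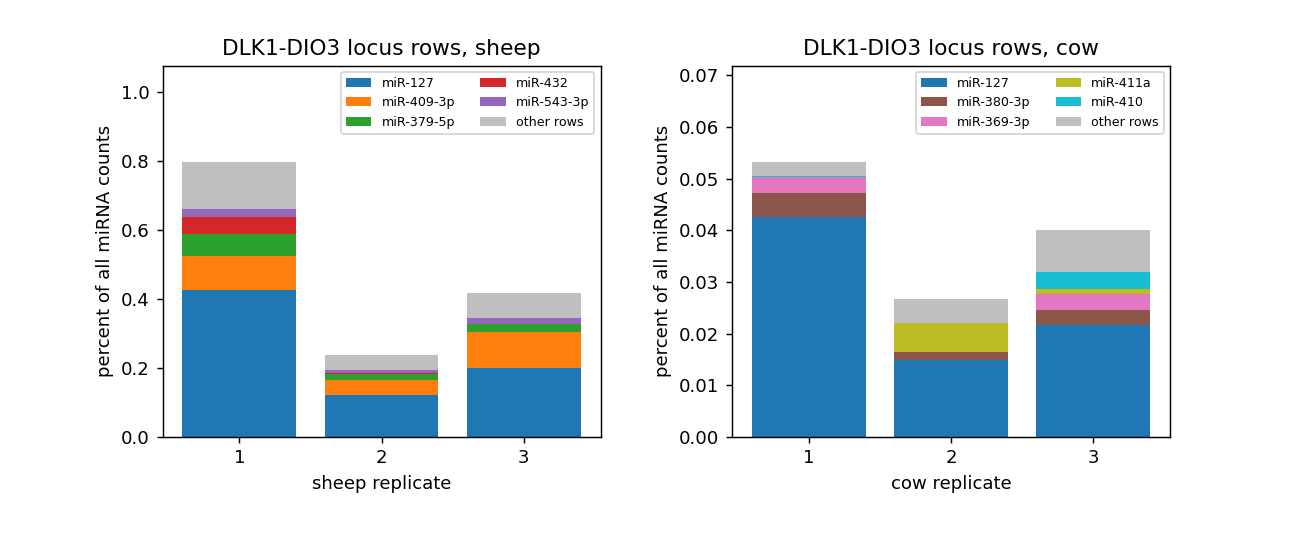
Stacked bars give the percent of all miRNA counts in locus rows for sheep replicates 1 to 3 (left) and cow replicates 1 to 3 (right, on a smaller scale), with the 5 most abundant rows in colour in sheep and 5 abundant rows in colour in cow. miR-127 is the largest part of every bar, and the bars reach 0.236% to 0.797% in sheep and 0.0266% to 0.0533% in cow.

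In sheep 33, 30 and 30 of the 36 member rows had at least 1 count in replicates 1, 2 and 3, and 22, 21 and 18 had at least 10. Of these rows 28 were counted in all 3 libraries (77.8%, against 97.9% of the other 48 named sheep rows), 1 in 2 libraries and 7 in a single library. All 685 sheep rows had a count in some library, so for the 28 listed miRNAs without a sheep row no count of 0 is shown. The locus supplied 42.9% of the sheep rows with a miRBase name, but its rows were at the lower end: the median over rows of the mean level was 16.6 CPM, against 669 CPM for the other named rows.

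In cow 8, 8 and 11 of the 19 member rows had at least 1 count in replicates 1, 2 and 3, and 3, 2 and 5 had at least 10. Only miR-127 and miR-380-3p were counted in all 3 cow libraries (10.5% of the member rows, against 50.2% of the other 257 named cow rows). A further 5 rows were counted in 2 libraries, 11 in a single library and miR-377 in none. The 11 rows seen in a single library had 1 to 9 counts each, 3 in replicate 1 (miR-154b, miR-382 and miR-665), 4 in replicate 2 (miR-136, miR-433, miR-494 and miR-654) and 4 in replicate 3 (miR-432, miR-485, miR-495 and miR-543). Scaled to the smallest library total of 328527, 23.5 to 28.3 sheep rows and 7.51 to 10.5 cow rows would be expected to have a count. This matches total counts only, as named rows and the largest row take different parts of the total in each species, and the tables list different rows.

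Among the miRNAs antisense to RTL1, miR-127 was the most abundant locus miRNA in every library of both species. It had 4734, 2531 and 2130 counts in sheep replicates 1, 2 and 3, or 4262, 1218 and 1983 CPM, and ranked 12th, 17th and 15th among the 84 named rows. In cow it had 140, 83 and 84 counts, or 426, 149 and 217 CPM, and ranked 54th, 83rd and 61st among 276 named rows. Every sheep value in CPM lay above every cow value. As a part of the locus counts it was steady in sheep, with 53.5%, 51.5% and 47.6%, while in cow it took 80.0%, 56.1% and 54.2%.

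miR-433-3p, from the hairpin before miR-127, had sheep counts of 223, 91 and 91 and kept close to miR-127, with 4.71, 3.60 and 4.27 counts per 100 counts of miR-127. miR-432, from the hairpin after miR-127, did not: it had 537, 81 and 1 counts, or 11.3, 3.20 and 0.0469 counts per 100 of miR-127. In CPM that was 484, 39.0 and 0.931, where the last value is 1 count and lies under the floor of 2.79 CPM. A steady ratio was not particular to hairpins beside miR-127. As a part of the locus counts miR-433-3p took 2.14% ± 0.34 (SD, n = 3). In the miR-379 to miR-656 cluster, miR-411a-5p took 1.71% ± 0.15 and the less steady miR-485-5p took 1.77% ± 1.87. miR-136 had 5, 6 and 9 counts and miR-431 had 5, 2 and 3, both near the floor. Together the 5 sheep rows antisense to RTL1 took 55.8% ± 6.12 of the locus counts (SD, n = 3), and the 4 cow rows took 80.0%, 65.5% and 54.8%; in replicate 2 that included 9 counts of miR-136 and 5 of miR-433 beside 83 of miR-127.

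The other proximal miRNAs were scarce. miR-370-3p had 77, 36 and 41 counts in sheep (69.3, 17.3 and 38.2 CPM), in the same order of libraries as miR-127. miR-493-5p had 7, 2 and 70 counts, with replicate 3 far above the others (6.30, 0.962 and 65.2 CPM). In cow this group held only miR-370 (0, 1 and 1 counts) and miR-665 (5, 0 and 0 counts).

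In the miR-379 to miR-656 cluster, miR-409-3p was the most abundant sheep row, with 1082, 911 and 1146 counts (974, 438 and 1067 CPM). It was therefore second to miR-127 in the locus, but the balance between them shifted, with 22.9, 36.0 and 53.8 counts per 100 of miR-127 in replicates 1, 2 and 3. miR-379-5p, from the first hairpin of the cluster, had 723, 319 and 245 counts, and 15.3, 12.6 and 11.5 per 100 of miR-127. miR-543-3p had 267, 157 and 173 counts, and 5.64, 6.20 and 8.12 per 100. In each sheep library the order was miR-127, miR-409-3p, miR-379-5p, while miR-543-3p lay below miR-432 in replicate 1 only.

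miR-485-5p, like miR-432, was highest in replicate 1 and lowest in replicate 3, with 345, 52 and 16 counts (311, 25.0 and 14.9 CPM). miR-134-5p, known from neuronal dendrites, was highest in replicate 3 with 28, 23 and 95 counts (25.2, 11.1 and 88.5 CPM), as was miR-493-5p above. The leukocyte miRNA miR-150 also stood highest in sheep replicate 1, with 637 CPM as given above; it is the only named sheep row of the 4 leukocyte miRNAs listed. The stromal list, with 2 of 4 miRNAs named in sheep, summed to 7081, 1678 and 2321 CPM. The part of these cell types in the spread of miR-432 and miR-485-5p was not tested.

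Further rows of the cluster had counts in a single sheep library. miR-323c had 38 counts in replicate 2 and 0 in the others, while its close copy miR-323a-3p had 69, 124 and 49. miR-655-3p had 17, 0 and 0 counts. Of the miR-376 family, known for RNA editing in brain, the sheep table held 1 row, named for the 5p arms of both miR-376b and miR-376e, with 0, 1 and 0 counts. The cluster as a whole took 36.8%, 44.0% and 47.5% of the locus counts in sheep replicates 1, 2 and 3.

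Ordered along the sheep locus, counted hairpins were unevenly placed. The 8 proximal hairpins from miR-493 to miR-370 held 7 with a row and 10687 counts over the 3 sheep libraries, and the next 14 from miR-379 to miR-495 held 8 with a row and 3015 counts. The following 15 hairpins, from miR-3958 to miR-3959, held 5 with a row but only 56 counts. The last 17, from miR-487a to miR-323c, held 8 with a row and 4478 counts. The bounds of these stretches were set after the values had been seen, and the joint row of miR-376b and miR-376e counts in both hairpins.

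**Figure D2:**
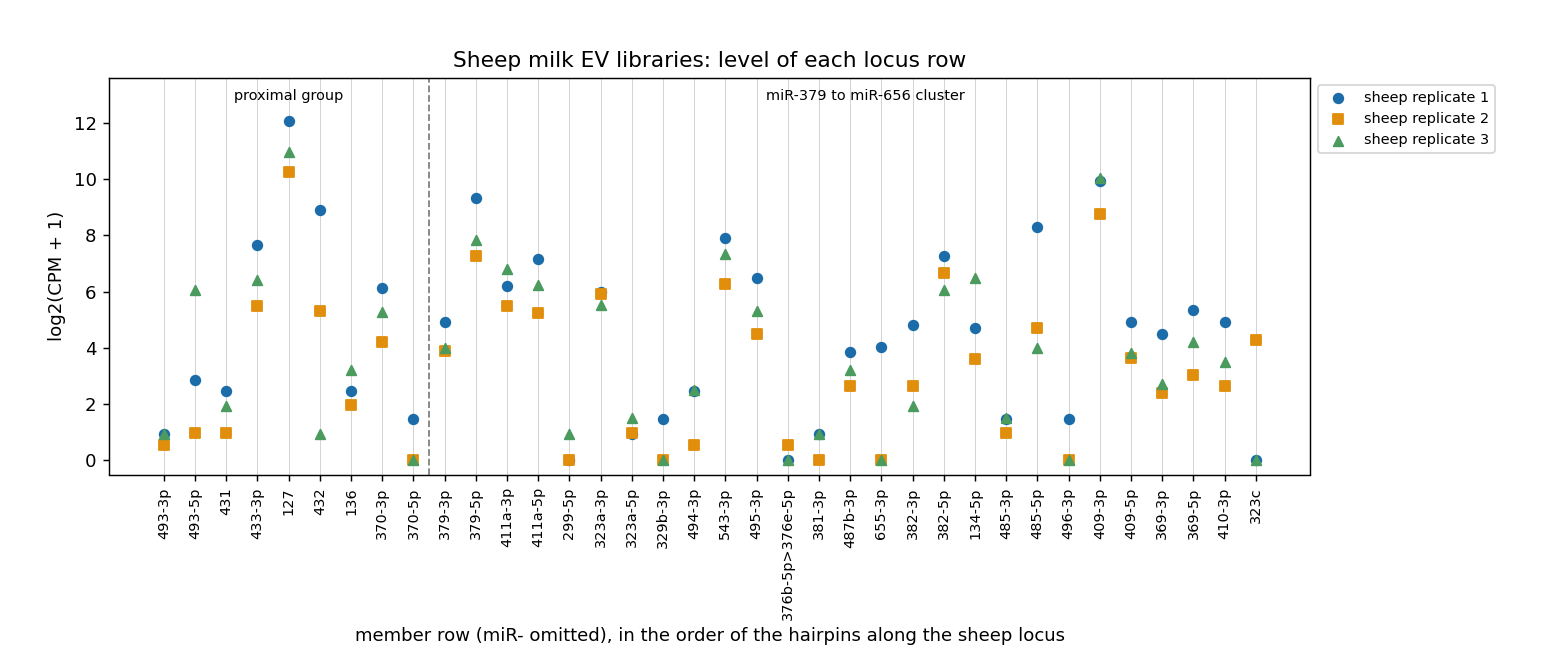
Each point is the level of a sheep member row in 1 library, as log2(CPM + 1), with rows ordered along the locus and the 3 replicates marked by colour and shape. miR-127 stands highest, miR-409-3p is the highest row of the cluster, and the points of miR-432 lie farthest apart among rows counted in all 3 libraries (484, 39.0 and 0.931 CPM).

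The 8 most abundant sheep rows, which add miR-433-3p, miR-485-5p and miR-382-5p (169, 208 and 70 counts) to the 5 shown first, together held 88.8% ± 2.34 of the locus counts (SD, n = 3). The top 3 alone held 76.4% ± 2.45. In cow, miR-127 apart, no row passed 32 counts in a library. miR-380-3p, which has no sheep row, had 15, 8 and 11 counts (45.7, 14.4 and 28.4 CPM). miR-411a had 0, 32 and 4 counts, so its 57.5 CPM in cow replicate 2 lay above the 9.13 CPM that a count of 0 allows in replicate 1. miR-369-3p had 10, 0 and 12 counts, and miR-410 and miR-487b each had 1, 0 and 13. These last 3 cow rows had no count in replicate 2 and all had their highest CPM in replicate 3. Names that differ from a member only by a letter stayed outside the rule: cow miR-154c (11, 0 and 0 counts), miR-323 (11, 0 and 0), miR-409a (0, 0 and 1) and miR-409b (9, 0 and 0).

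Both arms of 9 hairpins had sheep rows, so arm use could be read within a library; no cow hairpin had both. Each hairpin is cut into a 5p and a 3p strand, and usually 1 of them is kept. The 3p arm was the more abundant one of miR-323a, miR-370 and miR-409 in all 3 libraries. The 5p share of miR-409 was 2.96% (95% Wilson interval 2.12 to 4.13), 2.57% (1.73 to 3.79) and 1.21% (0.720 to 2.02) in replicates 1, 2 and 3. For miR-323a and miR-370 the 5p share was at most 3.92% and 2.53%.

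The 5p arm was the more abundant one of miR-369, miR-379, miR-382, miR-485 and miR-493 in all 3 libraries. Among these 5, miR-379 had the lowest SD, with 95.6% (93.9 to 96.9), 91.7% (88.3 to 94.1) and 93.9% (90.3 to 96.2) of its counts on the 5p arm. miR-382 had 84.9% (79.3 to 89.2) in replicate 1, below the interval of 91.2 to 97.2 in replicate 2, with intervals that do not meet. In replicate 3 it had 95.9% (88.6 to 98.6), an interval that meets both. miR-369 was the most even of the 5, with 64.7% (52.8 to 75.0), 62.5% (42.7 to 78.8) and 76.0% (56.6 to 88.5) on 24 to 68 counts. The arms of miR-493 rest on 3 counts in replicate 2 (20.8 to 93.9). In replicate 2 the intervals of miR-369 and miR-493 thus include equal arms. As miR-379-3p and miR-411a-3p differ by 1 base, the 3p counts of both hairpins carry the uncertainty named above.

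miR-411a was the only hairpin whose leading arm changed between libraries. Its 5p share was 66.1% (59.9 to 71.8) in replicate 1, 45.2% (37.9 to 52.8) in replicate 2 and 40.5% (33.9 to 47.4) in replicate 3, from 158, 76 and 81 counts of the 5p and 81, 92 and 119 counts of the 3p arm. The interval of replicate 1 does not meet the other 2, which meet each other.

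**Figure D3:**
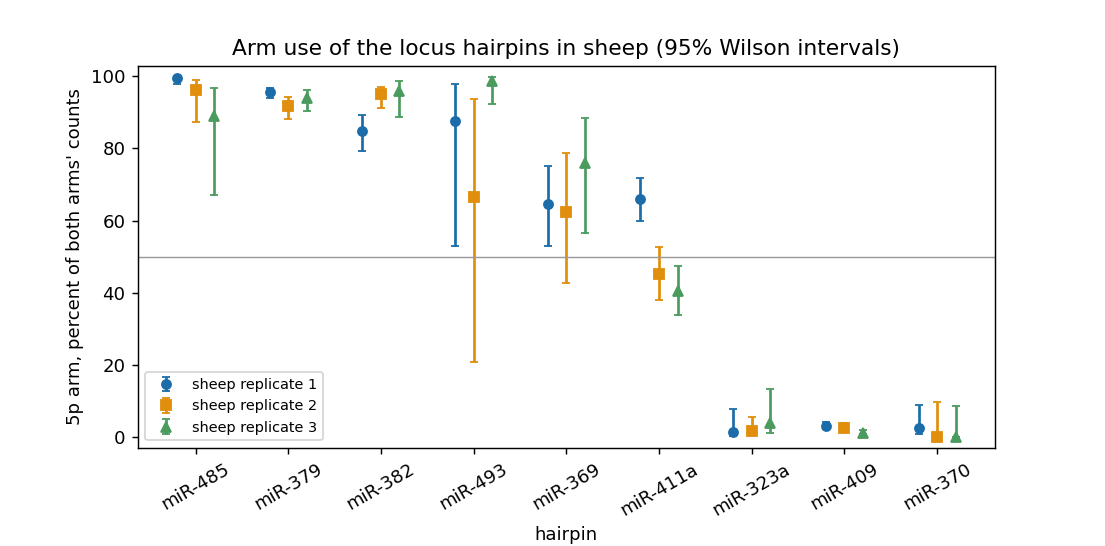
Points give the 5p arm's percent of the counts of both arms in sheep replicates 1, 2 and 3 for the 9 hairpins with both arms, with 95% Wilson intervals and a line at equal arms. miR-409, miR-323a and miR-370 lie near 0, and miR-411a lies on both sides of the line (66.1%, 45.2% and 40.5%).

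Replicates ordered the locus rows less alike than the other named rows in both species, and poorly in cow. Spearman correlations of CPM between sheep libraries ran from 0.799 to 0.865 over the 36 member rows, and from 0.941 to 0.945 over the other 48 named rows. In cow they ran from -0.0561 to 0.404 over the 18 member rows with a count, and from 0.771 to 0.833 over 225 other named rows with a count. These are descriptions across miRNAs, which share the library and its depth, and cow member rows mostly hold fewer than 10 counts. Among the 21 sheep member rows with a mean of at least 10 CPM, 17 were highest in replicate 1, beside 27 of the other 47 named rows at that level. Without miR-148a in the denominator it was 14 of 21 beside 16 of 47, and the median level in replicate 1 was 1.59 times the mean of the others for member rows and 0.852 times for the other rows. No test was made of this, as it sets 1 library against 2. The cut was on the mean of all 3 libraries, so a high value in replicate 1 could bring a row in. This held for miR-382-3p (27.0, 5.29 and 2.79 CPM in replicates 1, 2 and 3), miR-369-3p (21.6, 4.33 and 5.59 CPM) and miR-410-3p (29.7, 5.29 and 10.2 CPM). In the same way miR-493-5p (6.30, 0.962 and 65.2 CPM) came in through replicate 3. The cut kept 47 of the 48 other named rows but 21 of the 36 member rows, so it favours replicate 1 more among member rows.

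The exact names miR-127, miR-136, miR-369-3p and miR-432 occurred in both tables, and the first and the third of these passed the filter on low counts of a test over all 42 shared miRNAs. The log2 difference of miR-127, sheep minus cow, was 2.66 ± 0.64 (SE), and miR-127 was called higher in sheep (quasi-likelihood test of edgeR, Benjamini-Hochberg adjusted p = 0.000141). Its libraries did not overlap, as for 57.9% of all miRNAs tested. miR-369-3p, with 24, 9 and 6 sheep counts against 10, 0 and 12 cow counts, was at -1.70 ± 2.16 (adjusted p = 0.469, edgeR), and its libraries overlapped. Of the 38 miRNAs tested, 52.6% were called, 28.9% higher in sheep and 23.7% higher in cow, so 1 call in 2 members does not set the locus apart. The median difference was 0.43 for all 38 miRNAs. The median of 0.48 for the 2 members is the midpoint of 2.66 and -1.70, so it describes neither of them.

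Without normalization factors, which lowers the differences by a median of 1.75, miR-127 was at 1.21 and its call ended (adjusted p = 0.292, edgeR). The 20 calls over all miRNAs, 11 higher in sheep and 9 in cow with TMM factors, became 5 and 13 there, and 7 and 10 with upper-quartile factors. miR-127 passed in 15 of 16 other settings. miR-432 (537, 81 and 1 counts in sheep, 0, 0 and 1 in cow) overlapped between the species and did not pass the filter; where no filter was used it was at 7.07 and passed (adjusted p = 0.0154, edgeR), and with limma on log2(TPM + 10) it was at 1.10 and did not (adjusted p = 0.233).

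A wider join, added after the data were seen, also took names with an arm suffix in 1 table only where each table had 1 row of that hairpin. It assumes that both rows are the same arm, which the cow table does not show. It gave 10 locus rows in 54 joined miRNAs. By CPM over all rows of a library, 4 of these 10 lay higher in sheep without overlap, beside 33.3% of all joined miRNAs (55.6% in either direction). They were miR-127, miR-433-3p (201, 43.8 and 84.7 CPM against 0, 8.98 and 0), miR-495-3p (88.2, 21.6 and 39.1 against 0, 0 and 18.1) and miR-543-3p (240, 75.5 and 161 against 0, 0 and 20.6). In edgeR 5 of the 10 were tested and miR-127 alone passed, at 2.52 ± 0.57 (adjusted p = 0.00234), where 46.8% of the 47 tested were called and 21.3% called higher in sheep. miR-433-3p was at 3.86 ± 1.58 (adjusted p = 0.0605, edgeR) and miR-543-3p at 3.56 ± 1.57 (adjusted p = 0.0742, edgeR), and neither passed. miR-495-3p was at 2.04 ± 1.63 (adjusted p = 0.298, edgeR), and its libraries overlapped on the scale of that fit. miR-433-3p, miR-543-3p and miR-495-3p each had counts in 1 cow library only, so they passed the filter mainly on their sheep counts. miR-432, miR-410, miR-487b, miR-136 and miR-494 did not pass the filter and were not tested. Of these, miR-432 had 537 counts in sheep replicate 1, while miR-136 and miR-494 had at most 9 in any library. Which differences were tested thus depends in part on the filter, and this join was not fitted without it. For miR-369-3p, miR-410, miR-487b, miR-136 and miR-494 the highest value of all 6 libraries was in a cow library. For miR-494 that value was 3 counts, no more than the floor.

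**Figure D4:**
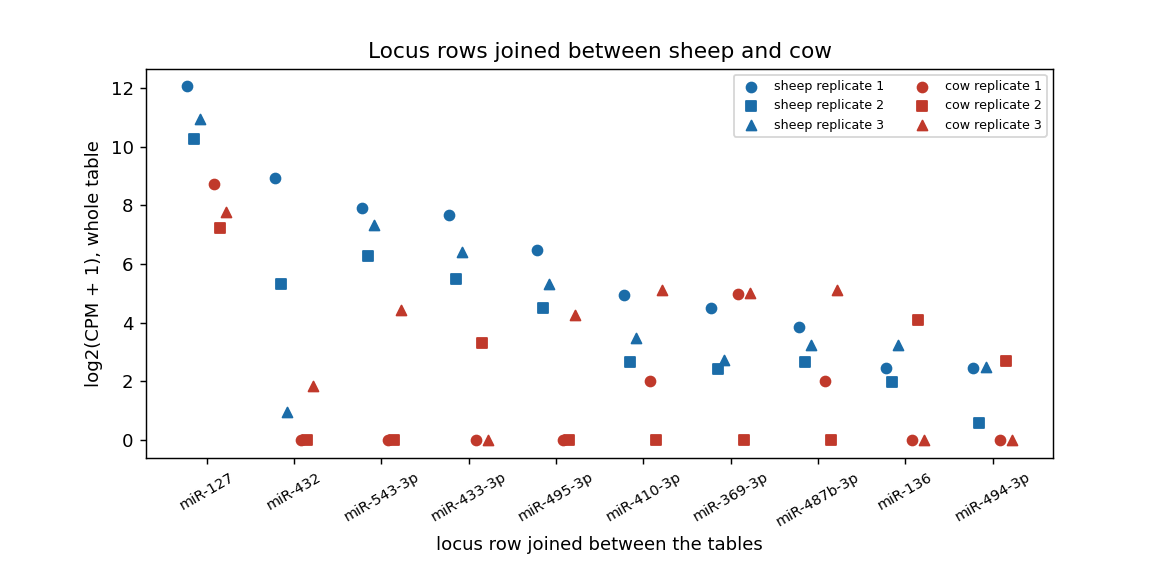
Points give the level of the 10 joined locus rows in each library as log2(CPM + 1), sheep in blue and cow in red, with shapes for replicates 1 to 3. The sheep points lie above all cow points for miR-127, miR-543-3p, miR-433-3p and miR-495-3p, and overlap them for the other 6.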

How the data were processed

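Small RNA of milk EVs was measured in 3 sheep and 3 cow libraries, grouped by their titles. Per the labels' protocols, a TruSeq small RNA kit was used; its adapter ligation and PCR favour some miRNAs, so a share of counts can differ from a share of molecules. cutadapt 1.14 and Bowtie were used, per the submitters' processing notes; the sources used here do not give the build, miRBase release or counting tool. The authors' count tables, 1 per species, hold unnormalized read numbers. In the authors' TPM tables each value is the count over a per-library constant (9859791 to 16091056) on the usual TPM scale, without length correction; no source used here says what the constant counts.

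CPM, shares with 95% Wilson intervals, ranks and arm shares were computed from the counts over the whole table of a species. Rows were joined by mature name and tested with edgeR 4.0.16 (quasi-likelihood, TMM, default filterByExpr, library sizes summed over the shared miRNAs, threshold of 0.05), with limma 3.58.1 and DESeq2 1.42.0 as alternatives; the edgeR step was tested on simulated data. Each SE was derived from the F statistic of the log2 difference. Shares were compared by exact permutation tests. The members, lists and tests were chosen with earlier results of these data known. The rule named member rows tested between species, the 10 of highest mean CPM per species, both arms of hairpins where 1 arm reached a mean of 10 CPM, the sequences of the highest rows and of members sharing a seed, and up to 4 rows of each marker list; other rows named were chosen after their values were seen. Rows without a miRBase name could not be assigned to the locus.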

Additional observations from a re-analysis of the deposited data

How the results depend on the processing

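The number of locus members called was 1 of 2 tested in the reported fit and 0 of 2 without normalization factors. It was 2 of 4 in DESeq2, without the filter and with limma on log2(TPM + 1), where miR-432 was added. Of all 42 miRNAs, 21, 21 and 25 were called there. It was 1 of 2 with any sheep library left out, and 2 of 3 without cow replicate 1, 2 or 3. In these 3 cow fits 17, 23 and 20 of 41 miRNAs were called. The added member was again miR-432, which passed the filter there but not in the reported fit. It passed on its sheep counts, as it had 0, 0 and 1 counts in cow, so these calls are no separate support for a difference. Its libraries overlapped without cow replicate 1 or 2. The higher numbers thus went with more members tested. miR-127 lost its call without normalization factors (1.21), and miR-369-3p, not called anywhere, changed sign to 0.37 with log2(TPM + 1) and 0.070 with log2(TPM + 10). Calls over all shared miRNAs ran from 14 to 25. With limma on log2(TPM + 1) and log2(TPM + 10), the median shifts were 1.87 and 1.53 and the calls split 20 to 5 and 16 to 4. The locus share was higher in sheep in all 13 other settings with 1 choice changed or 1 library left out (0.286 to 0.567 percentage points for the latter). Leaving out 1 library or blocking by replicate number could not reverse the direction, because every sheep share over all counts lay above every cow share. Those settings are therefore no support for it. Over shared miRNAs and without sheep replicate 1, added after the data were seen, the difference turned to -0.00991. With a minimum of 10 counts, the mean number of rows detected per library fell from 31.0 to 20.3 in sheep and from 9 to 3.33 in cow. Over the 23 sheep rows with a mean of at least 10 counts the mean Spearman correlation was 0.700 (0.589 to 0.851), against 0.826 over all 36. The other 47 named sheep rows with that mean had correlations of 0.937 to 0.941. In cow 3 rows reached that mean, with correlations of 0.5 to 1.0, too few rows to compare. The cause of these changes was not tested.

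With the replicate number as a block, edgeR made 14 calls in place of 20, miR-127 was at 2.87 (adjusted p = 0.000809) and miR-369-3p at -1.13, and the permutation p of the locus share was 0.25, the smallest that 3 pairs allow. Same-numbered libraries come from different species and deviated together with correlations of only -0.0673, 0.136 and 0.0201, and not every library correlated best with its own number, so the numbers do not pair the libraries. Planned joins by RefSeq mature sequences were not run, as no such table was used here. A single count weighs most in cow, where it is worth up to 3.04 CPM. Scaled to the smallest library total, 23.5 to 28.3 sheep rows and 7.51 to 10.5 cow rows would still be expected to have a count. The cause of that gap was not tested.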

Other observations

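Of 5 imprinted miRNAs outside the locus (miR-483, miR-675, miR-335, miR-296 and miR-298), none had a sheep row with a miRBase name. In cow, miR-335, from an intron of the imprinted gene MEST, had 13, 56 and 24 counts in replicates 1, 2 and 3, and miR-296-3p of the GNAS region had 57, 83 and 8. Both were below miR-127 in cow replicates 1 and 3, while miR-296-3p equalled its 83 counts in cow replicate 2.

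A sheep row without a miRBase name shared the seed of miR-134-5p and had 0, 49 and 0 counts in sheep replicates 1, 2 and 3, where miR-134-5p had 28, 23 and 95. A second such row shared the seed of miR-381-3p, with 2, 0 and 1 counts against 1, 0 and 1.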
